A study of Mus musculus with 40 samples.

Results

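The mRNAs of the nuclear-encoded subunits of respiratory complex I were followed in the liver of mice that lack Nampt in hepatocytes (HNKO) and in WT mice, after 3, 6, 12, and 21 days on a purified diet (PD). The genes were chosen by symbol alone, as Ndufa, Ndufb, Ndufc, Ndufs, or Ndufv followed by a number, or Ndufab1, with at least 10 counts in at least 3 of the 38 libraries used. This rule gave 37 of the 55487 genes in the count table, and none of the 37 genes with a matching symbol was lost to the threshold, since each had at least 149 counts in every library. The mice were female, of the C57BL/6JBomTac background, and 9 weeks old when PD feeding began; the sample labels give the days of feeding as the age. HNKO mice carried Nampt fl/fl with Alb-Cre+/-, so deletion was limited to cells in which the albumin promoter is or was active, and WT mice were floxed littermates without Cre. Whole liver was sequenced after rRNA depletion, 1 mouse per library. WT mice numbered 5, 4, 5, and 5 at days 3, 6, 12, and 21, and HNKO mice numbered 5, 5, 6, and 3. HNKO libraries 17 and 18 of day 21, which the labels describe as failed in quality control, were left out.

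Complex I is the largest enzyme of the respiratory chain. Its hydrophilic arm takes electrons from NADH at the N module and passes them through iron-sulfur clusters to ubiquinone at the Q module, and its membrane arm pumps protons across the inner mitochondrial membrane. Most subunits are encoded in the nucleus and imported, whereas the hydrophobic proton-pumping core (the mt-Nd genes) is encoded in mitochondrial DNA. NAMPT makes nicotinamide mononucleotide, the precursor from which hepatocytes rebuild NAD+, and NADH is the electron donor of complex I. The comparison asked how the mRNAs of the enzyme behaved over time in livers in which the salvage of NAD+ was removed from hepatocytes.

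The total counts of the 38 libraries ranged from 16151037 to 64181492 (median 26466478.5). No 2 libraries of the same group were alike within counting error in any of the 74 pairs (chi-square per gene at least 12.3). Nampt, the deleted gene, had a log2 fold change (HNKO minus WT) of -0.93 ± 0.23 (SE) at day 3, -0.90 ± 0.24 at day 6, and -0.82 ± 0.22 at day 12 (adjusted p = 0.0193, 0.0128, and 0.0208, edgeR's quasi-likelihood test with Benjamini-Hochberg adjustment), and of -0.69 ± 0.27 at day 21 (adjusted p = 0.161). All HNKO libraries were below all WT libraries for Nampt at days 3, 12, and 21, and 4 of 5 were at day 6. The library numbers run through the days as 2 series, 1 to 21 and 22 to 41; what separates them is not given in the sources used here. In a bulk sample fewer cells of a type and less RNA per cell cannot be told apart, and this holds for each difference given below.

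At day 6 complex I genes of each arm of the enzyme were lower in HNKO livers relative to the other genes, after scaling of the libraries by TMM (trimmed mean of M values). Of the 37 genes, 19 were significantly lower (adjusted p under 0.05 over the 20297 genes tested) and 0 were higher, whereas 4.37% of all genes tested were called lower, 8.42% higher, and 12.8% were called in either direction. The log2 fold change was below 0 for all 37 genes (51.8% of all genes), from -0.58 to -0.12, with a median of -0.38, or -23.3% on the linear scale. The median of all genes tested was -0.01. In 16 of the 37 genes every HNKO library was below every WT library, as in 4.68% of all genes. The count of 19 rested in part on single libraries: without HNKO library 29 it was 2 (5.41% of the 37, against 5.58% of all genes called in either direction) and the median was -0.29, without HNKO library 30 it was 11 (29.7% against 10.6%), and without WT library 8 it was 8 (21.6% against 8.07%).

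Fewer genes were called at the other days. At day 3, 4 of the 37 genes were significantly lower (among them Ndufs3, Ndufb5, and Ndufc2) and 0 were higher, where 1.71% of all genes were called lower, 2.95% higher, and 4.66% in either direction. The log2 fold change was below 0 for 36 of 37 genes (48.1% of all genes) with a median of -0.31, or -19.5%. Unadjusted p-values under 0.05 with a lower level were seen for 21 of the 37 genes, against 9.35% of all genes, and 4 genes had no overlap between the groups (1.8% of all genes). The count at day 3 moved with single libraries. By edgeR it was 0 without HNKO library 2, 3, or 23 or without WT library 5, 24, or 25, where 1.59% to 2.64% of all genes were called in either direction. It was 2 without WT library 26 (5.41% of the 37, against 4.31% of all genes), 8 without WT library 1 (21.6% against 4.58%), and 9 without HNKO library 22 (24.3% against 8.24%).

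At day 12, 8 of the 37 genes were significantly lower (among them Ndufa5, Ndufb7, Ndufb10, Ndufs3, Ndufs5, Ndufs6, and Ndufs7) and 0 were higher, where 3.27% of all genes were called lower, 4.56% higher, and 7.82% in either direction. The median log2 fold change was -0.23, or -14.6%, and 33 of 37 genes were below 0 (49.7% of all genes). In 2 of the 37 genes the groups did not overlap (2.14% of all genes). Ndufb10 was called with an adjusted p of 0.0498. The count was 1 without WT library 16 (of the 37 genes, against 5.99% of all genes called in either direction), 2 without HNKO library 13 or WT library 15 (5.41%, against 4.60% and 4.21%), 3 without HNKO library 11 or 12 (8.11%, against 5.47% and 5.66%), and 4 without HNKO library 35 or WT library 34 (10.8%, against 6.41% and 5.77%). Without some of these libraries the share of the 37 genes was thus near the share of all genes called in either direction. The share of all genes called lower alone is not given for these fits.

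At day 21, with 3 HNKO mice, 0 of the 37 genes were called by edgeR or DESeq2 (0.916% of all genes called lower by edgeR, 2.21% higher, and 3.12% in either direction). With unadjusted p-values under 0.05, 6 of the 37 genes were lower (7.63% of all genes). The median log2 fold change was -0.18, or -11.5%, and 33 of 37 genes were below 0 (51.7% of all genes). Without HNKO library 37, which had the lowest summed level of the 3, the median was -0.07. In 2 genes, Ndufs6 among them, the groups did not overlap (6.7% of all genes).

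The size of these differences depended on the scaling of the libraries. The TMM factors, which set the library scale so that most genes do not differ, were 0.878 to 0.967 in WT and 0.945 to 1.24 in HNKO at day 6. With counts scaled by the library total alone, an alternative chosen after seeing the data, the median of all genes tested was 0.18, 0.20, 0.19, and 0.19 at days 3, 6, 12, and 21, and that of the 37 genes was -0.15, -0.18, -0.03, and 0.03, so that the direction turned at day 21. On that scale the log2 fold change was below 0 for 33, 35, 23, and 14 of the 37 genes. Of these genes 0, 2, 1, and 0 of the 37 were called lower and 0 higher, where 0.665%, 1.1%, 0.739%, and 0.276% of all genes were called lower and 8.16%, 14.5%, 10.5%, and 5.7% higher. The median of the 37 genes minus that of all genes was -0.33, -0.37, -0.23, and -0.16 with TMM and -0.33, -0.38, -0.23, and -0.16 with the library total. Each difference given here is therefore relative to the other genes of the library, on the TMM scale unless another is named.

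**Figure D1:**
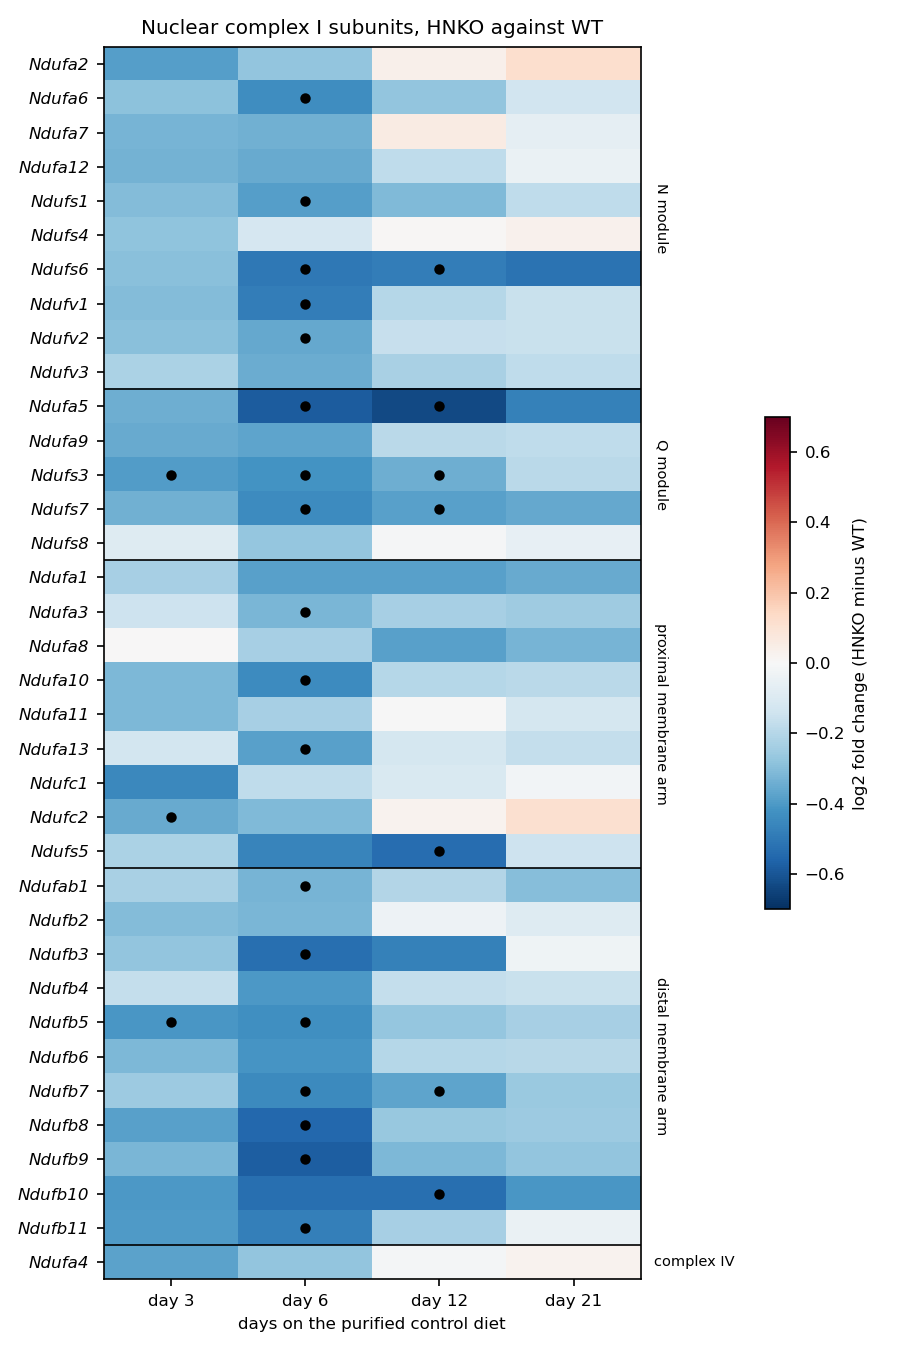
Log2 fold change (HNKO minus WT, color scale) of 36 of the 37 genes (rows, grouped by their place in the enzyme) at each day of PD feeding (columns); black dots mark adjusted p under 0.05. The dots are most frequent at day 6, none stands at day 21, and all stand on lower values; the scale is TMM, and with the library total alone the median of the genes at day 21 was 0.03.

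Across days, 22 of the 37 genes were called lower at 1 or more days, 7 at 2 or more days, and 15 at none, against 7.53%, 2.08%, and 92.5% of all genes tested. Of the 148 pairs of a gene and a day, 139 had a log2 fold change below 0 and 31 were called lower, against 50.3% and 2.57% of such pairs over all genes. In 31 genes it was below 0 at all 4 days, as in 23.8% of all genes. These counts are on the TMM scale. With the library total alone 33, 35, 23, and 14 of the 37 genes were below 0 at days 3, 6, 12, and 21. On that scale 0, 2, 1, and 0 were called lower. The groups of the 4 days are separate mice, and no WT mouse served in more than 1 comparison. The genotype by day interaction was significant for 0 of the 37 genes and 0% of all genes tested by edgeR. At an unadjusted p under 0.05 it included 1 of the 37 genes (Ndufc2) and 4.76% of all genes. The differences between the counts of the days were therefore not shown to be differences in response.

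The 37 genes were also summed in each library, given here and below in the order of the library numbers. At day 3 the sums were 2387, 2806, 2813, 2845, and 2748 CPM (counts per TMM-scaled library size) in WT and 1982, 2256, 2429, 2434, and 1936 CPM in HNKO. At day 6 they were 2965, 2790, 2801, and 2728 CPM in WT and 2350, 2195, 1674, 2146, and 2356 CPM in HNKO. All HNKO livers were below all WT livers at day 6, and at day 3 WT library 1 lay among the HNKO livers. At day 12 the sums ranged from 2231 to 2700 CPM in WT (median 2491) and from 1924 to 2424 CPM in HNKO (median 2069), which overlapped. At day 21 they were 2503, 2308, 2267, 2325, and 2333 CPM in WT and 1844, 2161, and 2279 CPM in HNKO, of which 1 lay within the WT range. HNKO library 29 of day 6, with the highest TMM factor (1.24), had the lowest sum of the 38 on this scale. The mean sum was 2720 ± 189 (SD, n = 5), 2821 ± 101 (n = 4), 2495 ± 177 (n = 5), and 2347 ± 91.0 (n = 5) CPM in WT and 2207 ± 238 (n = 5), 2144 ± 279 (n = 5), 2126 ± 209 (n = 6), and 2094 ± 225 (n = 3) CPM in HNKO at days 3, 6, 12, and 21. The HNKO means ran from 2094 to 2207 CPM, and the WT means were lower at days 12 and 21 than at days 3 and 6. With the library total alone the sums at day 6 were 2604, 2481, 2656, and 2639 CPM in WT and 2221, 2270, 2071, 2337, and 2413 CPM in HNKO, still without overlap. They ranged from 2275 to 2683 CPM in WT and 2214 to 2411 CPM in HNKO at day 3, from 2146 to 2395 and 1988 to 2506 CPM at day 12, and from 2048 to 2494 and 2251 to 2572 CPM at day 21, which overlapped.

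**Figure D2:**
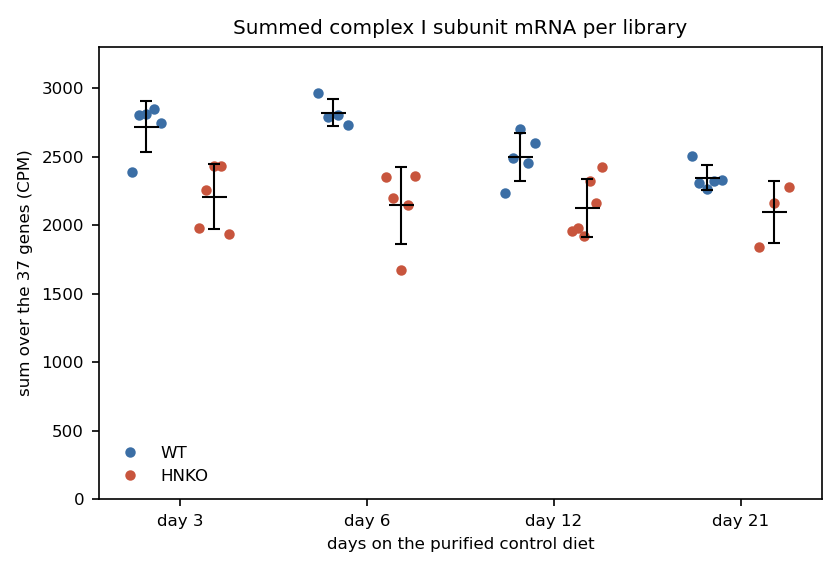
Summed level of the 37 complex I genes (CPM, TMM-scaled, axis from 0) in each library (points) by day and genotype, with the mean and SD (black). The HNKO libraries lie below the WT libraries at day 6 without overlap, and the WT means are lower at days 12 and 21 than at days 3 and 6.

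The day effect was also tested within each genotype. In WT it was significant for 3 of the 37 genes (5.84% of all genes), and at an unadjusted p under 0.05 for 17 (21.2% of all genes). The count fell to 1 without WT library 8, 10, 20, 21, 25, or 39 (1 of 37 is 2.7%, against 4.002% to 5.36% of all genes), and also with no filter on low counts, with all 40 libraries, or with length and GC offsets (2.03%, 2.91%, and 4.96% of all genes), so that at least 2 of the next 3 genes lost the call there. Ndufv3, a small accessory subunit of the N module, had a WT mean of 6.26 log2 CPM at day 3 and 6.24, 6.09, and 5.76 log2 CPM at days 6, 12, and 21 (adjusted p of the day effect 0.0127, edgeR). Ndufs8, which carries iron-sulfur clusters of the Q module, went from 6.05 to 5.69 log2 CPM between days 3 and 21 (adjusted p = 0.0286, edgeR), and Ndufa12, an accessory subunit of the N module, from 5.21 to 4.74 (adjusted p = 0.0351, edgeR). In HNKO 0 of the 37 genes had a significant day effect (7.9% of all genes), and 4 did at an unadjusted p under 0.05 (22.9% of all genes). Against day 3, 36 of 37 genes were lower in WT at day 21 (median log2 difference -0.22) and 24 of 37 in HNKO (median -0.08). Whether the course over days differed between the genotypes is what the interaction tested, and it was not significant for any of the 37 genes.

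The Q module holds the site where ubiquinone is reduced. Of its 6 genes 2, 4, 4, and 0 were called lower at days 3, 6, 12, and 21, where 1.71%, 4.37%, 3.27%, and 0.916% of all genes were called lower. Scaled by the library total, 0, 0, 1, and 0 were called and the medians were -0.18, -0.20, -0.12, and -0.0022. On the TMM scale all 6 were below 0 at every day, with medians of -0.34, -0.40, -0.32, and -0.20. The smallest difference of the module at days 3, 6, 12, and 21 was that of Ndufs8 (-0.09, -0.27, -0.01, and -0.06), which was called at no day.

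Ndufs3, a core subunit of the Q module, was called at days 3, 6, and 12. At day 3 WT read 5.96, 6.08, 6.29, 6.06, and 6.06 log2 CPM and HNKO 5.46, 5.61, 5.90, 5.82, and 5.70. At day 6 WT read 6.20, 6.13, 5.99, and 6.00 log2 CPM and HNKO 5.78, 5.74, 5.20, 5.69, and 5.82. At both days all HNKO livers were below all WT livers, and the lowest value at day 6 was that of HNKO library 29. The log2 fold changes were -0.39 ± 0.11 at day 3, -0.42 ± 0.11 at day 6, and -0.34 ± 0.10 at day 12 (adjusted p = 0.0319, 0.0131, and 0.0366, edgeR), and -0.19 ± 0.13 at day 21 (adjusted p = 0.454). Of the stretches of 51 bases in the Ndufs3 transcripts, 17.5% also occur in transcripts of other genes, so part of its reads could be split or shared.

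Ndufs7, the core subunit with the iron-sulfur cluster next to ubiquinone, was called at days 6 and 12. At day 6 WT read 5.81, 5.82, 5.79, and 5.70 log2 CPM and HNKO 5.53, 5.46, 4.97, 5.28, and 5.42, without overlap (-0.44 ± 0.12, adjusted p = 0.0125, edgeR). At day 12 WT read 5.62, 5.52, 6.06, 5.65, and 5.79 log2 CPM and HNKO 5.20 to 5.59 (median 5.33), with 5 of 6 HNKO livers below all WT livers (-0.38 ± 0.11, adjusted p = 0.0251). Its differences at days 3 and 21 were -0.34 ± 0.11 and -0.36 ± 0.13 (adjusted p = 0.0734 and 0.119). At day 12 the highest WT value was that of library 16, and without this library 1 of the 37 genes was called.

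Ndufa5, an accessory subunit of the Q module, had the largest difference of any of the 37 genes at days 6 and 12. At day 12 WT read 5.33, 5.51, 6.40, 5.21, and 5.21 log2 CPM and HNKO 4.76 to 5.14 (median 5.0002). No HNKO liver reached the WT range (-0.63 ± 0.16, adjusted p = 0.0156, edgeR; two-sided exact permutation p = 0.00216, the smallest possible), although WT library 16 stood far above the other WT livers, and without it the difference was -0.34 and no longer called. At day 6 WT read 5.94, 5.71, 5.28, and 5.36 log2 CPM and HNKO 5.30, 5.17, 4.51, 4.92, and 5.07, where 1 HNKO liver lay within the WT range (-0.58 ± 0.18, adjusted p = 0.0291). Within each series of library numbers the genotypes did not overlap at day 6. At day 3 the groups did not overlap, at 5.31 to 5.53 log2 CPM in WT and 4.79 to 5.26 in HNKO, but the difference of -0.34 ± 0.17 was not called (adjusted p = 0.249).

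The N module binds NADH and FMN. Of its 10 genes 0, 5, 1, and 0 were called lower at days 3, 6, 12, and 21, with median log2 fold changes of -0.30, -0.35, -0.19, and -0.15, beside 1.71%, 4.37%, 3.27%, and 0.916% of all genes. Scaled by the library total, 0 of the 10 were called at these days by edgeR (0, 3, 1, and 0 lower at an unadjusted p under 0.05), and the medians were -0.14, -0.16, 0.0050, and 0.06, above 0 at days 12 and 21. The called genes at day 6 were Ndufv1, the subunit that binds NADH and FMN (-0.48 ± 0.13, adjusted p = 0.0130), Ndufv2 (-0.36 ± 0.11, adjusted p = 0.0284) and Ndufs1 (-0.39 ± 0.11, adjusted p = 0.0214), which carry iron-sulfur clusters, and the accessory subunits Ndufa6 (-0.44 ± 0.12, adjusted p = 0.0128) and Ndufs6 (-0.50 ± 0.16, adjusted p = 0.0404), all by edgeR. Ndufs1 overlaps exons of Eef1b2 on the opposite strand, which has a median of 2534.5 counts. Ndufs4, an accessory subunit whose loss is a known cause of complex I deficiency, had differences of -0.28 ± 0.18, -0.12 ± 0.19, 0.01 ± 0.17, and 0.03 ± 0.21 and was called at no day.

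Ndufs6, a zinc-binding accessory subunit of the N module, was the only member of that module called at day 12 and had the smallest p of the 37 genes at day 21. At day 6 WT read 6.19, 5.87, 5.58, and 5.59 log2 CPM and HNKO 5.56, 5.61, 4.96, 5.15, and 5.29. At day 12 WT read 5.68, 5.95, 6.19, 5.30, and 5.50 log2 CPM and HNKO 4.89 to 5.52 (median 5.37; -0.49 ± 0.15, adjusted p = 0.0381, edgeR). The groups overlapped at both days, though at day 6 not within either series of library numbers. WT library 16 had the highest WT value at day 12 (6.19 log2 CPM), and without it 1 of the 37 genes was called at that day. At day 21 WT read 5.32, 5.21, 5.20, 4.98, and 5.52 log2 CPM and HNKO 4.58, 4.78, and 4.87, without overlap, and the difference of -0.51 ± 0.18 was not called (adjusted p = 0.114; two-sided exact permutation p = 0.0179, the smallest possible). With the libraries that failed quality control included, this difference was 0.00099. The exact p is not adjusted for the choice of the gene. At day 21, 6.7% of all genes had every HNKO library below every WT library. Of the 51-base stretches of Ndufs6, 7.37% also occur in other genes. Ndufs6 overlaps Mrpl36 on the opposite strand, which has a median of 370.5 counts.

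In the membrane arm, the distal part had more calls at day 6 than the proximal part, and the difference between the parts was not tested. Of the 11 genes of the distal arm 1, 7, 2, and 0 were called lower at days 3, 6, 12, and 21, and all 11 were below 0 at each day (medians -0.31, -0.45, -0.26, and -0.23). Of the 9 genes of the proximal arm 1, 3, 1, and 0 were called lower (medians -0.24, -0.32, -0.20, and -0.17). Over all genes 1.71%, 4.37%, 3.27%, and 0.916% were called lower. Scaled by the library total, 1 gene of each part was called at day 6 and 0 at the other days, and the medians were -0.15, -0.25, -0.07, and -0.03 in the distal and -0.09, -0.12, -0.0073, and 0.04 in the proximal arm. On the TMM scale the called genes of the distal arm at day 6 ranged from Ndufb9 (-0.58 ± 0.14) to Ndufab1 (-0.32 ± 0.11), and the others were Ndufb3, Ndufb5, Ndufb7, Ndufb8, and Ndufb11.

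Ndufb9, an accessory subunit of the distal arm, had the smallest p at day 6. WT read 7.47, 7.38, 7.07, and 7.04 log2 CPM and HNKO 6.95, 6.87, 6.10, 6.59, and 6.72, without overlap (adjusted p = 0.00462, edgeR). It overlaps a further gene model, Gm49356, on the same strand, and 15.5% of its 51-base stretches occur there. Ndufb5 was called at days 3 and 6. At day 3 WT read 6.07, 6.19, 6.21, 6.31, and 6.19 log2 CPM and HNKO 5.50, 5.77, 5.94, 6.04, and 5.63 (-0.41 ± 0.12, adjusted p = 0.0404). At day 6 WT read 6.19, 6.05, 6.19, and 6.20 log2 CPM and HNKO 5.81, 5.73, 5.32, 5.74, and 5.98 (-0.43 ± 0.13, adjusted p = 0.0206). At neither day did a HNKO liver reach the WT range.

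Ndufb7, a subunit on the intermembrane side, was called at days 6 and 12. At day 6 WT read 6.03, 5.75, 5.88, and 5.79 log2 CPM and HNKO 5.62, 5.51, 5.07, 5.38, and 5.49, without overlap (-0.45 ± 0.13, adjusted p = 0.0219, edgeR). At day 12 WT read 5.59, 5.62, 6.18, 5.59, and 5.74 log2 CPM and HNKO 5.24 to 5.77 (median 5.34; -0.37 ± 0.12, adjusted p = 0.0476). HNKO library 32 was the exception at day 12 and lay within the WT range. WT library 16 stood above the other WT livers, and without it the difference was -0.24 and no longer called (adjusted p = 0.210, edgeR). The call at day 12 was lost in 9 of the 11 fits that left out 1 library of that day. Ndufab1, the mitochondrial acyl carrier protein, is present both in the distal membrane arm and in the hydrophilic arm, and serves fatty acid and lipoic acid synthesis as well. At day 6 it read 4.62, 4.47, 4.71, and 4.83 log2 CPM in WT and 4.34, 4.44, 4.14, 4.30, and 4.46 in HNKO (-0.32 ± 0.11, adjusted p = 0.0474), and at day 21 its difference was -0.30 ± 0.12 (adjusted p = 0.172). The call of Ndufab1 at day 6 was lost in 7 of the 9 fits that left out 1 library, that of Ndufb5 at day 3 in 7 of 10, and those of Ndufs3 at days 3 and 12 in 6 of 10 and 7 of 11, whereas those of Ndufb9 and Ndufa10 at day 6 were lost in 0 of 9.

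In the proximal arm, Ndufa10, which has the fold of a nucleoside kinase, was called at day 6. WT read 7.02, 7.16, 6.94, and 6.997 log2 CPM and HNKO 6.88, 6.73, 6.10, 6.46, and 6.69, without overlap (-0.44 ± 0.10, adjusted p = 0.00485, edgeR). The other called genes of this arm were Ndufa3 and Ndufa13 at day 6 (-0.32 ± 0.10 and -0.38 ± 0.12), Ndufc2 at day 3 (-0.35 ± 0.11), and Ndufs5 at day 12 (-0.53 ± 0.16). Ndufs5 had the lowest counts of the 37 genes (median 261), and 21.5% of its 51-base stretches occur in another gene. Ndufc2 was 0.02 ± 0.10 at day 12 and 0.11 ± 0.12 at day 21, and Ndufa8 was 0.00 ± 0.14 at day 3.

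**Figure D3:**
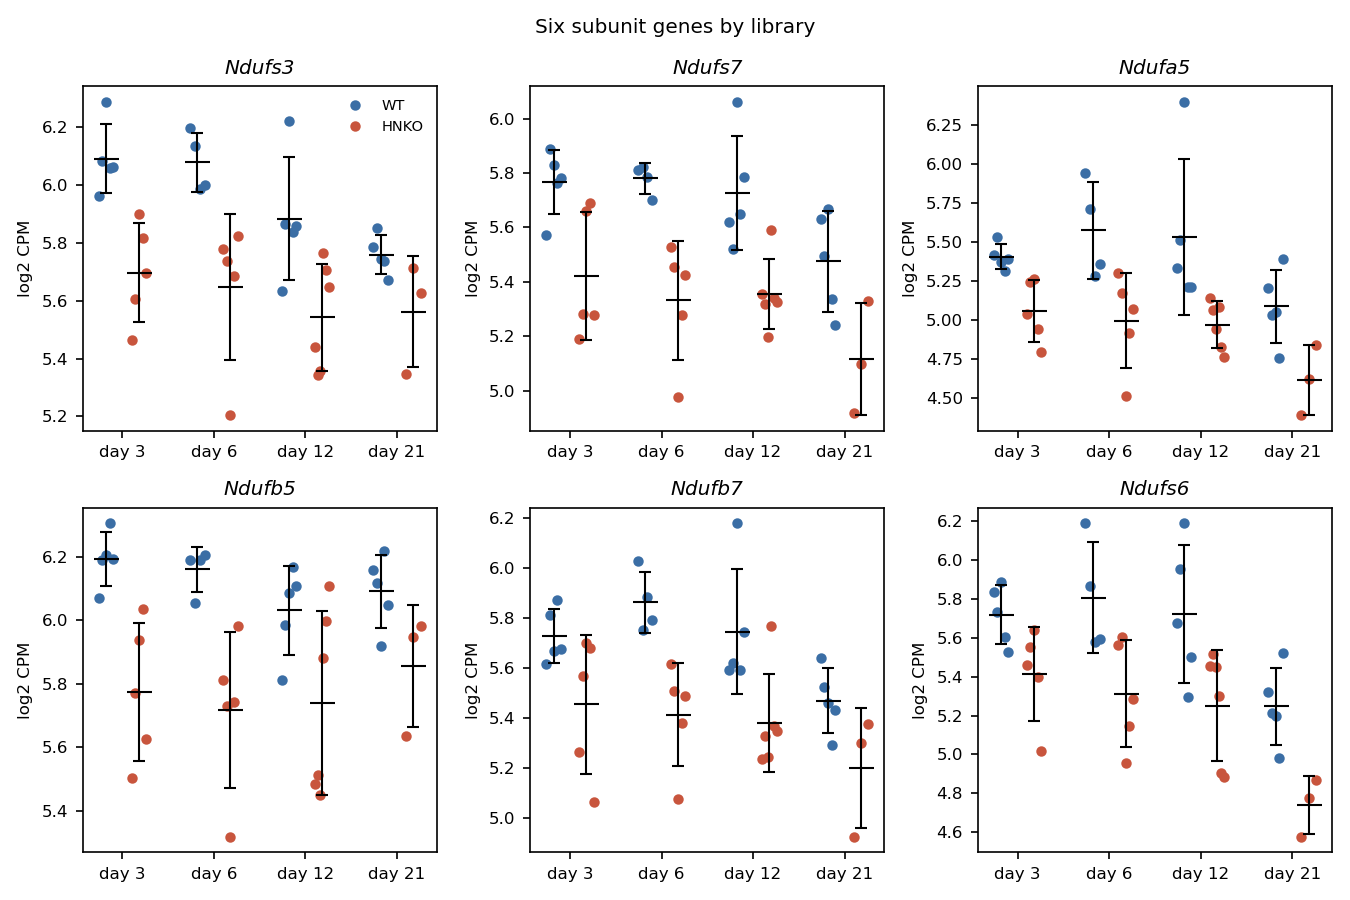
Log2 CPM of Ndufs3, Ndufs7, Ndufa5, Ndufb5, Ndufb7, and Ndufs6 in each library (points) by day and genotype, with the mean and SD (black); each panel has its own scale. HNKO livers lie below WT livers without overlap at day 6 for Ndufs3, Ndufs7, Ndufb5, and Ndufb7, and the isolated high WT point at day 12 for Ndufa5, Ndufs7, and Ndufb7 is library 16.

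Ndufa4 shares the naming pattern but is, by structure, a subunit of cytochrome c oxidase. It was called at no day. At day 6 it read 7.15, 7.12, 7.75, and 7.72 log2 CPM in WT and 7.09, 6.90, 7.002, 7.33, and 7.52 in HNKO, so that the groups overlapped. Within each series of library numbers, with 2 or 3 libraries of a genotype, they did not. The lower series read 7.15 and 7.12 against 7.09 and 6.90, and the higher 7.75 and 7.72 against 7.002, 7.33, and 7.52. Its differences were -0.38 ± 0.20, -0.28 ± 0.21, -0.01 ± 0.19, and 0.02 ± 0.23 at days 3, 6, 12, and 21. Within WT at day 12 the libraries of the lower number series read 6.89, 6.92, and 6.78 log2 CPM and those of the higher series 7.63 and 7.54, a gap larger than the difference between genotypes. Ndufb2, an accessory subunit of the distal arm, was also called at no day (-0.31 ± 0.15, -0.32 ± 0.16, -0.04 ± 0.15, and -0.09 ± 0.18). It overlaps Braf on the opposite strand, which has a median of 1320 counts.

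The median was below 0 within each series of library numbers. At days 3, 6, and 12 the median difference of the 37 genes (HNKO minus WT, mean log2 CPM) was -0.22, -0.33, and -0.35 among libraries 1 to 21 and -0.36, -0.41, and -0.14 among libraries 22 to 41. At day 21 only the higher series held both genotypes, with a median of -0.18. The step between the series did not follow the numbers at day 21 for every gene: Ndufa4 read 7.42 to 7.62 log2 CPM in WT libraries 19 to 21, near the higher series of the other days, and 6.94 in WT library 41, near the lower. The value at day 21 rests on that split, with 2 WT libraries. Between 31 and 37 of the 37 genes were below 0 in the 7 comparisons. With the series as a covariate the counts called lower at days 3, 6, 12, and 21 were 5, 28, 11, and 0, where 5.77%, 14.8%, 9.85%, and 4.0% of all genes were called in either direction. With libraries 19 to 21 and 41 exchanged between the series, an alternative chosen after seeing the data, they were 10, 30, 11, and 2 (6.21%, 15.9%, 10.8%, and 4.91% of all genes).

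Between genes, levels were compared as CPM per kb of the annotated transcript. In WT livers (n = 19) the median of the 37 genes was 61.8 CPM per kb. Ndufa4 was highest at 322 ± 75.1 CPM per kb (SD), followed by Ndufa6 at 217 ± 24.5, Ndufb9 at 189 ± 27.3, and Ndufa7 at 140 ± 25.6. Ndufb2 was lowest at 10.04 ± 1.57, next to Ndufab1 at 10.4 ± 1.29 and Ndufb4 at 15.2 ± 2.38, and the highest level was 32.01 times the lowest. Ndufb2 and Ndufab1 did not differ beyond their spread. In HNKO livers (n = 19) Ndufa4 stood at 283 ± 58.5 and Ndufb2 at 8.69 ± 1.59 CPM per kb. The medians of the N module, Q module, proximal arm, and distal arm in WT were 66.8, 60.1, 66.4, and 64.4 CPM per kb. Levels per kb depend on which transcript is taken. When all annotated exons were counted as length, Ndufb9 was highest (129 CPM per kb) and Ndufa4 was next (124), Ndufa6 was at rank 9, Ndufa7 at rank 20, and Ndufb7 moved from rank 13 to rank 34.

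**Figure D4:**
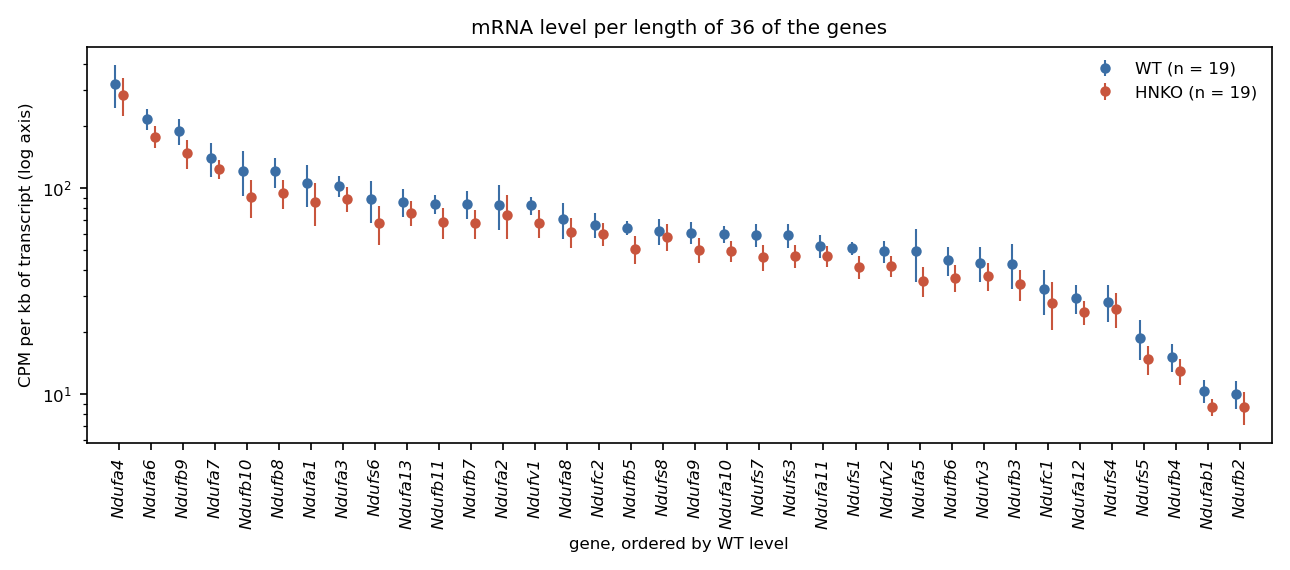
Level of 36 of the 37 genes as CPM per kb of transcript (log axis), mean and SD over all WT (blue) and all HNKO (red) libraries of the 4 days, ordered by the WT level. The WT means run from 322 for Ndufa4 to 10.04 for Ndufb2.

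Of 39 nuclear subunits of the other respiratory complexes (II to V), 2, 23, 3, and 2 were called lower and 0 higher at days 3, 6, 12, and 21 (1.71%, 4.37%, 3.27%, and 0.916% of all genes called lower), with medians of -0.34, -0.40, -0.18, and -0.16. With the library total alone these medians were -0.18, -0.21, 0.02, and 0.04, so that the sign turned at days 12 and 21, and 0, 5, 0, and 1 were called lower. At day 6 those with the smallest p were Sdha, the FAD-binding subunit of complex II (-0.51 ± 0.10, adjusted p = 0.000583), and the core proteins of complex III, Uqcrc1 (-0.43 ± 0.09, adjusted p = 0.00238) and Uqcrc2 (-0.47 ± 0.11, adjusted p = 0.00295), all by edgeR. Sdha was also called at days 12 and 21 (-0.39 ± 0.09 and -0.47 ± 0.11), and with the library total at days 6 and 21 but not at day 12 (-0.20, adjusted p = 0.0502, edgeR). The difference between the mean log2 CPM of the complex I genes and that of the complex II to V genes was, per library, -1.17 to -1.07 in WT and -1.15 to -1.02 in HNKO at day 3 and -1.16 to -1.03 and -1.12 to -1.05 at day 6, so that the ranges overlapped. The lower level was thus not shown to be particular to complex I.

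Assembly factors build the enzyme and are not part of it. Of 19 genes 0, 4, 1, and 0 were called lower and 0 higher, beside 1.71%, 4.37%, 3.27%, and 0.916% of all genes called lower, with medians of -0.16, -0.23, -0.04, and -0.05 (0.01, -0.02, 0.15, and 0.15 with the library total alone). Those called at day 6 were Timmdc1 (-0.33 ± 0.09, adjusted p = 0.0148), Dmac2 (-0.66 ± 0.19, adjusted p = 0.0176), Ecsit (-0.44 ± 0.14, adjusted p = 0.0292), and Ndufaf1 (-0.29 ± 0.09, adjusted p = 0.0361), by edgeR. Timmdc1 was also called at day 12. On the library-total scale 0, 1, 0, and 0 were called lower and 0, 0, 1, and 1 higher at the 4 days.

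The medians of the 6 mitochondrially encoded complex I genes tested were -0.05, -0.51, -0.67, and -0.79 at days 3, 6, 12, and 21, and 0, 0, 2, and 0 were called lower (1.71%, 4.37%, 3.27%, and 0.916% of all genes). With the library total the medians were 0.10, -0.34, -0.48, and -0.57, so that the sign turned at day 3, and mt-Nd6 at day 12 was the 1 call. On the TMM scale at day 12 mt-Nd6, the gene on the other strand of mitochondrial DNA, had a log2 fold change of -1.09 ± 0.30 (adjusted p = 0.0217, edgeR) and mt-Nd3 of -0.63 ± 0.19 (adjusted p = 0.0392). The spread between mice was large and followed in part the 2 series of library numbers. The summed level ranged from 3297 to 6920 CPM in WT and from 2871 to 6303 CPM in HNKO at day 3, and from 6011 to 10475 CPM and 3558 to 7489 CPM at day 12. At day 6 it was 4212 to 7033 CPM in WT and 1810 to 5810 CPM in HNKO, and at day 21 it was 4304 to 9144 CPM and 2847 to 4034 CPM, without overlap. At day 3 WT read 6920 and 6354 CPM in the lower series and 3297 to 3914 CPM in the higher. Within each series the genotypes did not overlap at day 12, with 9575 to 10475 CPM in WT and 6519 to 7489 CPM in HNKO in the lower and 6011 to 7276 and 3558 to 4121 CPM in the higher. At day 6 the same held in the higher series (4212 and 4284 CPM against 1810 to 3054 CPM) but not in the lower (5340 and 7033 CPM against 4842 and 5810 CPM). The 3 HNKO livers of day 21 are all of the higher series, whose 2 WT libraries, 39 and 41, read 4457 and 9144 CPM. Nuclear and mitochondrial complex I genes thus had medians of -0.31 and -0.05 at day 3 and of -0.18 and -0.79 at day 21, and whether they differed in course was not tested.

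**Figure D5:**
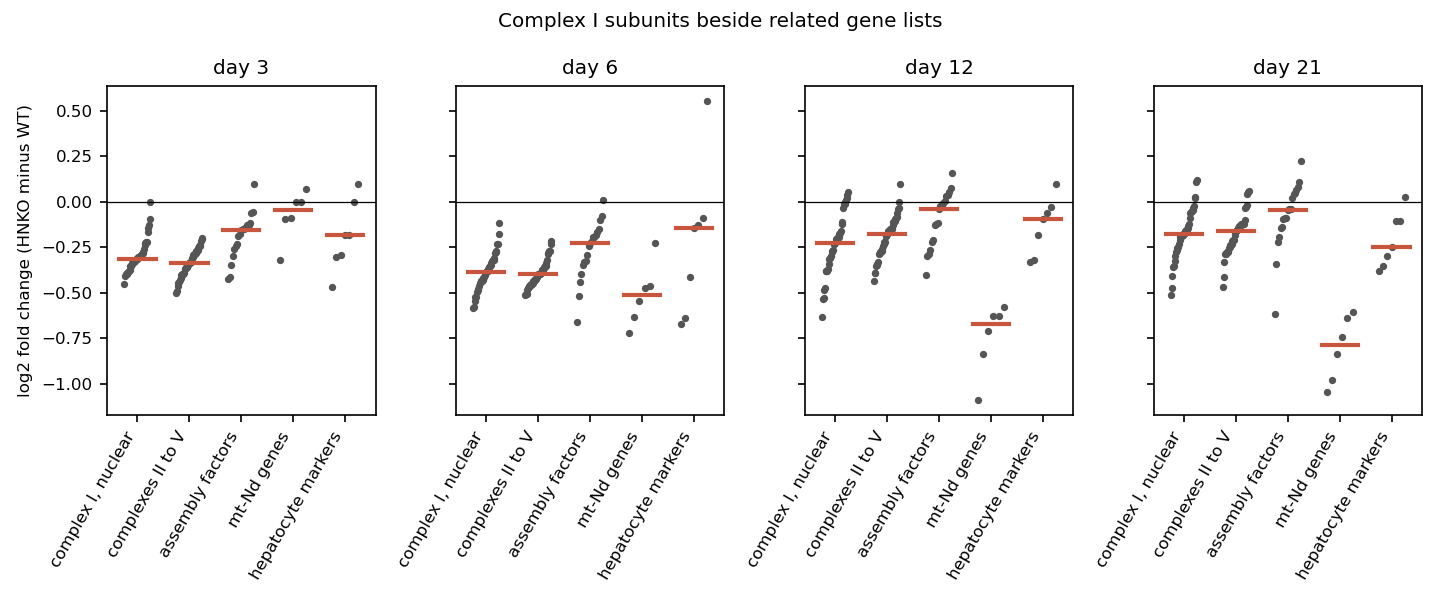
Log2 fold changes (HNKO minus WT) of single genes (points, sorted within a list) and their medians (red bars) at each day for the 37 complex I genes, 39 nuclear subunits of complexes II to V, 19 assembly factors, 6 mt-Nd genes, and 7 hepatocyte markers. On the TMM scale the bars of complex I lie at -0.31, -0.38, -0.23, and -0.18, beside those of complexes II to V at -0.34, -0.40, -0.18, and -0.16.

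Of 9 genes known to regulate the nuclear respiratory genes, 1 was called lower at day 3, 1 lower and 1 higher at day 6, 2 lower at day 12, and 1 lower at day 21, where 4.66%, 12.8%, 7.82%, and 3.12% of all genes were called in either direction. With the library total alone 0 of the 9 were called lower at the 4 days by edgeR (0, 1, 1, and 0 at an unadjusted p under 0.05), so that the calls of Tfam, Gabpa, and Ppargc1a were lost, and Pprc1 was called higher at days 3 and 6 (0.67 and 0.87, adjusted p = 0.0296 and 0.00432, edgeR). Tfam, the mitochondrial DNA-binding transcription factor, was lower at days 3 and 12 (-0.37 ± 0.11 and -0.41 ± 0.11, adjusted p = 0.0476 and 0.0163, edgeR). Gabpa, the ETS subunit of nuclear respiratory factor 2, was lower at days 12 and 21 (-0.39 ± 0.08 and -0.36 ± 0.10, adjusted p = 0.00549 and 0.0434). At day 6 the coactivator Ppargc1a was lower (-0.61 ± 0.19, adjusted p = 0.0296) and its relative Pprc1 was higher (0.64 ± 0.20, adjusted p = 0.0329). Nrf1, the gene of nuclear respiratory factor 1, had differences of 0.09 ± 0.08, -0.01 ± 0.08, -0.10 ± 0.08, and -0.14 ± 0.09.

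Since several members were lower together, the promoters of the genes called at 2 or more days were read for 3 motifs known from nuclear respiratory genes. RefSeq promoter windows (GRCm38.p6, 250 bases before to 50 bases after the annotated start) were matched for 33 of the 37 genes. The letters searched on both strands were GCGCANGCG for nuclear respiratory factor 1, CCGGAAG for ETS factors such as GABPA, and AAGATGGC for YY1. The first occurred in 8 of the 33 genes (24.2%) against 7.03% of all 27025 genes with a window, the second in 4 (12.1%) against 9.93%, and the third in 7 (21.2%) against 3.19%. The other 3 motifs were CAAGGTCA for ERRA (1 gene, 3.03%, against 1.76%), GGGCGG for SP1 (15 genes, 45.5%, against 38.2%), and TGACGTCA for CRE (3 genes, 9.09%, against 2.03%). None of the 6 strings contains another, and a match describes letters, not binding. The windows of the 5 genes called at 2 or more days that held one of the first 3 motifs are given 5′ to 3′ on the strand of the gene, with the motif letters in capitals. They lie at chr6:24527477-24527776 (minus strand, Ndufa5), chr10:80249199-80249498 (plus, Ndufs7), chr2:90904672-90904971 (minus, Ndufs3), chr8:83566508-83566807 (plus, Ndufb7), and chr13:73328433-73328732 (minus, Ndufs6).
Ndufa5: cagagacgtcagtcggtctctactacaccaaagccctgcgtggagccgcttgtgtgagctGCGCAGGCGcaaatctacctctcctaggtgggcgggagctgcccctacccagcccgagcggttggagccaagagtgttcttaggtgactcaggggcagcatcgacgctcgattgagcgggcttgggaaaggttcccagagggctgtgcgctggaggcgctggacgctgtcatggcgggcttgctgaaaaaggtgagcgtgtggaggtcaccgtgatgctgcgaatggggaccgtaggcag
Ndufs7: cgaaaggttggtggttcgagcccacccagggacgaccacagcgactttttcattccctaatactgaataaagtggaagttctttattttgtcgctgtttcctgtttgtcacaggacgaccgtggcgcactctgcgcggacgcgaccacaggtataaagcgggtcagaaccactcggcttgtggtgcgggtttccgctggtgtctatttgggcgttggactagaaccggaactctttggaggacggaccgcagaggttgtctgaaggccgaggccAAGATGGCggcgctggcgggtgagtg
Ndufs3: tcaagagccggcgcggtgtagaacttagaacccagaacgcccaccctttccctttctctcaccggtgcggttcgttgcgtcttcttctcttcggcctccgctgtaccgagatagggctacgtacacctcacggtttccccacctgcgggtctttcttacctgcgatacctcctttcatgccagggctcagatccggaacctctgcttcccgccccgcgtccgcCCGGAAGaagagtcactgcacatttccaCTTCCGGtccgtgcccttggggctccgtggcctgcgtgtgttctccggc
Ndufb7: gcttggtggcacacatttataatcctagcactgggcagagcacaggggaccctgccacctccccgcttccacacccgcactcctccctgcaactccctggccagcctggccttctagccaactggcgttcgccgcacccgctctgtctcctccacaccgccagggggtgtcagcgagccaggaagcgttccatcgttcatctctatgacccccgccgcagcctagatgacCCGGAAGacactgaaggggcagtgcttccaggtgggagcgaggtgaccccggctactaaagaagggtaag
Ndufs6: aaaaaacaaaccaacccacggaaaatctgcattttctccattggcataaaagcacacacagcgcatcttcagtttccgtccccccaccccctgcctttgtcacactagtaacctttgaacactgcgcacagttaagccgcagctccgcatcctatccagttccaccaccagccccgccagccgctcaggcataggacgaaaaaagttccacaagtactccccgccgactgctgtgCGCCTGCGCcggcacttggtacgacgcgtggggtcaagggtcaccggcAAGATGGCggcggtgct

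The Ndufa5 window held the nuclear respiratory factor 1 letters 190 bases before the start. The overlapping window of its second annotated start held the same letters, at the same place in the genome, 26 bases before that start. In Ndufs6 they lay on the opposite strand 15 bases before the start, with the YY1 letters from base 34 after it. In Ndufs7 the YY1 letters began at base 25. Ndufs3 held the ETS letters on both strands, 27 bases before the start and at base 2, and Ndufb7 held them 20 bases before the start. The window of Ndufb5, called at days 3 and 6, held none of the first 3 motifs, which says only that these letters are not in it. The genes with and without a motif were not compared in their response.

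Among markers of other liver cells, the biliary and stellate cell lists held called genes at every day. The macrophage, lymphocyte, and endothelial lists did not. Of 6 biliary markers 5, 5, 4, and 3 were called higher at days 3, 6, 12, and 21 (2.95%, 8.42%, 4.56%, and 2.21% of all genes called higher), and their summed level was 42.6 to 48.8 CPM in WT and 112 to 403 CPM in HNKO at day 3 and 34.3 to 46.3 and 165 to 754 CPM at day 6, with HNKO library 29 the highest. Of 7 stellate cell markers 2, 3, 3, and 3 were called higher, with sums at day 6 of 315 to 330 CPM in WT and 500 to 1247 CPM in HNKO. At day 3 HNKO libraries 2 and 23 had the lowest complex I sums of that day. They also had the highest sums of biliary (403 and 378 CPM) and stellate cell markers (950 and 1078 CPM). Of 6 macrophage markers 0, 3, 1, and 1 were called higher, and of 4 lymphocyte markers 0, 1, 1, and 0 were, beside the same shares of all genes. Of 6 endothelial markers 0, 1, 1, and 0 were called lower, where 1.71%, 4.37%, 3.27%, and 0.916% of all genes were, and with the library total 0 were lower at any day and 2 higher at day 6. Scaled by the library total, 5, 6, 5, and 5 biliary, 3, 5, 4, and 5 stellate cell, 0, 5, 5, and 1 macrophage, and 0, 1, 1, and 1 lymphocyte markers were called higher, where 8.16%, 14.5%, 10.5%, and 5.7% of all genes were. Every marker of these 5 lists passed the filter on low counts.

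Hepatocyte markers were abundant in every library, as the tissue label says. Of 7 markers 0, 2, 0, and 0 were called lower (Alb, -0.67 ± 0.18, adjusted p = 0.0138, and Ttr, -0.64 ± 0.18, adjusted p = 0.0189, at day 6, edgeR), with medians of -0.18, -0.14, -0.10, and -0.25, beside 1.71%, 4.37%, 3.27%, and 0.916% of all genes called lower. Fgb had 0.56 ± 0.20 at day 6 (adjusted p = 0.0569, edgeR). With the library total Alb and Ttr were called lower and Fgb higher (0.75, adjusted p = 0.000898, edgeR) at day 6, and the medians were -0.02, 0.07, 0.10, and -0.05, so that the sign turned at days 6 and 12. The summed level of the 7 markers was 134178 to 144800 CPM in WT and 72484 to 123384 CPM in HNKO at day 6, and HNKO library 29 was lowest there as it was for the complex I sum. The mean log2 CPM of the complex I genes minus that of the hepatocyte markers was -6.92 to -6.82 in WT and -7.18 to -6.91 in HNKO at day 6, and -7.23 to -6.77 and -7.09 to -6.89 at day 21. The part of these other cells and of the hepatocyte RNA in the complex I differences was not tested.

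Other genes with exon length, GC content, and level between the lowest and highest values of the 37 genes numbered 5063. The length was that of all annotated exons, from 419 to 8086 bases, and the genes were not matched gene by gene. Their median log2 fold changes were -0.04, -0.08, -0.07, and -0.07 at days 3, 6, 12, and 21, and 2.90%, 7.86%, 5.17%, and 1.80% of them were called lower. With offsets for length and GC content in each library, 6, 21, 10, and 0 of the 37 genes were called lower, and 5.597%, 14.4%, 8.08%, and 3.59% of all genes were called in either direction.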

How the data were processed

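Total RNA from whole liver was depleted of rRNA, made into stranded libraries, and sequenced with 51-bp paired-end reads by the authors, who aligned them to GRCm38 with STAR 2.7.2b and counted them on GENCODE release M22 genes with featureCounts 1.6.4 (their processing notes also name edgeR 3.26.0). The deposited table holds raw counts per gene, without normalization; the use of the strand in counting is not given in the sources used here, so reads of overlapping genes on opposite strands may not be told apart. Of 55487 genes, 55394 were matched to a symbol by identifier. Symbols, lengths, and GC content came from GENCODE release M21 of the same build. The 51-base stretches shared between genes were counted in its transcripts.

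Genes were kept by edgeR's filterByExpr (minimum count 10, minimum total 15, minimum proportion 0.7), which left 20297 genes and all 37 complex I genes. A model with a mean for every combination of genotype and day was fitted to the 38 libraries after TMM scaling (edgeR 4.0.16 in R 4.3.3, older computation of the dispersion). The genotypes were compared day by day by the quasi-likelihood test with Benjamini-Hochberg adjustment over all genes tested, and adjusted p-values under 0.05 were called. Standard errors are those the test statistic implies. Log2 CPM used a prior count of 2. Exact permutation tests compared mean log2 CPM, two-sided; the smallest p they allow is 0.00794 at days 3 and 6, 0.00216 at day 12, and 0.0179 at day 21. Precision depends on the depth and on groups of 3 to 6 mice.

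The alternatives were DESeq2 size factors, DESeq2 1.42.0, a filter of 1 count or of at least 10 counts per library, the inclusion of all 40 libraries, a fit of 1 day's groups alone, the newer edgeR dispersion, the number series as a covariate, length and GC offsets from a lowess trend (span 0.3), and leaving out each library in turn; scaling by the library total and an exchange of libraries 19 to 21 and 41 in the covariate were added after seeing the data. Members named with full values are those called at 2 or more days, the 3 with the smallest p at each day, and those with the highest and lowest level; other members are named where a group of genes is described, and at most 3 or 4 called genes of each further list. The genes and lists were chosen with earlier results of these data known. Of the 37 genes, 1 enters the counts, sums, and medians, and its own values are not reported here.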

Additional observations from a re-analysis of the deposited data

Results flagged for a closer look

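Among 84 groups of 4 to 6 libraries (the 11 members named with full values and the summed level, in the 7 groups of a genotype and day with more than 3 libraries), 7 held a library that stood apart from the others of its group by Dixon's criterion, which chance alone would give in about 1 of 20 groups. Of the 7, 2 were in WT library 16 of day 12, which was high for Ndufa5 (6.40 log2 CPM, the others at 5.21 to 5.51) and Ndufb7 (6.18, the others at 5.59 to 5.74). HNKO library 32 of day 12 was high for Ndufb7 (5.77 log2 CPM, the others at 5.24 to 5.37). HNKO library 29 of day 6 was low for Ndufs3 (5.20 log2 CPM, the others at 5.69 to 5.82). WT library 10 of day 6 was low for Ndufb5 (6.05 log2 CPM, the others at 6.19 to 6.20). For the summed level of the 37 genes, WT library 1 of day 3 was low at 2387 CPM (the others at 2748 to 2845), and WT library 19 of day 21 was high at 2503 CPM (the others at 2267 to 2333).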

How the results depend on the processing

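The median log2 fold change of the 37 genes was below 0 with every left-out library and under every alternative but the library total, from -0.32 to -0.29 at day 3, -0.40 to -0.35 at day 6, -0.27 to -0.20 at day 12, and -0.22 to -0.15 at day 21 under the alternatives of tool, filter, libraries, and covariates. With the library total alone in place of TMM, chosen after seeing the data, it was -0.15, -0.18, -0.032, and 0.031 at days 3, 6, 12, and 21, the counts of called genes were 0, 2, 1, and 0, and the median of all genes was 0.18 to 0.20. Ndufa4 and Ndufb2 at day 12 were then 0.18 and 0.15, and Ndufa10, Ndufb2, and Ndufs3 at day 21 were 0.012, 0.11, and 0.0061. With libraries 19 to 21 and 41 exchanged in the covariate, also chosen after seeing the data, the counts were 10, 30, 11, and 2 (6.21%, 15.9%, 10.8%, and 4.91% of all genes called), the day effect in WT had 7 genes, and Ndufa4 at day 21 was -0.076. At day 3 the count of 4 became 7 with DESeq2 (7.04% of all genes) and 0 with no filter beyond 1 count (1.603%), with all 40 libraries (1.66%), or with only the 2 groups of the day (2.42%). At day 6 the count of 19 became 12 with no filter (4.90%), 12 with all 40 libraries (6.61%), and 5 with only the 2 groups of the day (7.53%), and at day 12 the count of 8 became 2, 2, and 0 in that order (2.76%, 3.12%, and 4.79%). The day effect in WT had 3 genes, against 6 with DESeq2 (9.14% of all genes), 1 with no filter (2.03%), 1 with all 40 libraries (2.91%), 8 with the number series as a covariate (10.96%), and 1 with length and GC offsets (4.96%), and that in HNKO had 0 genes, against 1 with DESeq2 (11.02%). The cause of these changes was not tested. The count at day 21 was 0 under the other alternatives, and that of the interaction under all.

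With 1 library left out at a time, the counts ranged from 0 to 9 at day 3, 2 to 22 at day 6, 1 to 9 at day 12, and 0 to 0 at day 21, from 1 to 5 for the day effect in WT (1 without WT library 8, 10, 20, 21, 25, or 39, and 5 without WT library 33), and from 0 to 1 for that in HNKO (1 without HNKO library 23). The medians ranged from -0.37 to -0.27 at day 3, -0.43 to -0.29 at day 6, -0.28 to -0.19 at day 12, and -0.22 to -0.073 at day 21. Among the members named with full values, the sign turned under the other alternatives for Ndufa4, Ndufb2, and, with all 40 libraries, Ndufs6 at day 21 (0.00099). Ndufa4 at day 12 was 0.013 with at least 10 counts in every library and 0.021 with length and GC offsets, and Ndufa4 at day 21 was -0.29 with the number series as a covariate. With 1 library left out, Ndufa4 ranged from -0.16 to 0.12 at day 12 and -0.064 to 0.085 at day 21, and Ndufb2 from -0.16 to 0.033 at day 12 and -0.20 to 0.056 at day 21. No paired analysis was possible because the groups share no replicate numbers. Each gene had at least 149 counts in every library, and standard errors were 0.09 to 0.26 log2 units.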

Other observations

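The libraries numbered 1 to 21 and 22 to 41 were also compared within groups, as numbered. Over the 7 groups that hold both series, the mean difference in log2 CPM (higher minus lower series) was 0.54 for Ndufc1, 0.49 for Ndufa2, 0.44 for Ndufa4, and 0.44 for Ndufs4, and it was -0.34 for Ndufa1, -0.34 for Ndufb10, and -0.33 for Ndufs6. Ndufb2 and Ndufb4 were higher in the higher series in all 7 groups, and Ndufb10 and Ndufa5 were lower in all 7. These genes were chosen after their values were seen. Over 200 genes each way outside complex I, chosen for the largest difference between the series at days 3, 6, and 12, the mean log2 CPM of the genes higher in the higher series minus that of the others was -1.62 to -0.17 in the lower and -0.37 to 0.78 in the higher series at those days. At day 21 it was 0.10, -0.02, and -0.19 in WT libraries 19, 20, and 21 and -0.18 in WT library 41, so that libraries 21 and 41 lay where the ranges overlap.

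The 2 HNKO libraries of day 21 that failed quality control had total counts of 12287423 and 15935527. In a fit of all 40 libraries their complex I sums were 2098 and 1931 CPM, within the range of 1852 to 2307 CPM of the other HNKO libraries of that day and below the range of 2276 to 2498 CPM in WT. Outside the naming pattern, Ndufb1-ps had a median of 821.5 counts and differences of -0.42 ± 0.25, -0.21 ± 0.27, -0.20 ± 0.24, and -0.01 ± 0.29 at days 3, 6, 12, and 21, none of them called by edgeR.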
